A study of Homo sapiens with 4 samples.

Results

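Tissue factor and the plasminogen system were described by 9 genes named for their function, F3, THBD, TFPI, TFPI2, PROCR, PLAU, PLAUR, PLAT and SERPINE2, out of 28058 gene symbols counted. All 9 were in the table, and the choice used no threshold on a measured value, although it was made with their counts already known. The libraries came from cells labelled as the human neuroblastoma line SH-SY5Y. There were 2 samples given shock wave treatment (SWT) and 2 untreated controls, and RNA was isolated at 6 h. The labels describe 300 pressure pulses of 0.08 mJ/mm2 at 3 Hz, delivered to filled culture flasks 7 cm from the applicator in water at 37 °C, whereas the design field mentions exosomes as the treatment. Both groups grew in the same medium with fetal calf serum, and no label says that the replicates were separate cultures. P-values therefore measure the spread between these samples only, which may be technical.

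Tissue factor, the product of F3, is the membrane receptor that binds factor VIIa and starts the extrinsic pathway of blood clotting. Clotting is held back by tissue factor pathway inhibitor, and by the protein C system, in which thrombomodulin (THBD) and the endothelial protein C receptor (PROCR) turn thrombin towards activating protein C. In the plasminogen system, urokinase (PLAU) and tissue plasminogen activator (PLAT) convert plasminogen to plasmin, the urokinase receptor (PLAUR) holds urokinase at the cell surface, and serpins such as protease nexin-1 (SERPINE2) inhibit the proteases. In the nervous system, tissue plasminogen activator is known for its part in synaptic plasticity, and urokinase and its receptor for cell migration and axon regrowth.

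Total counts were 10043697 and 11686808 in SWT replicates 1 and 2, against 11647603 and 9888263 in control replicates 1 and 2, and a count of 0 allows at most 0.257 to 0.303 CPM (counts scaled to the library total). Of 15 markers of mesenchymal-type neuroblastoma cells, 14 reached 10 CPM in every library and 0 stayed under 1 CPM in every library. Of 16 noradrenergic markers, 2 reached 10 CPM in every library and 10 stayed under 1 CPM in every library. PHOX2A, TH, DBH, DDC, CHGA and MYCN were among those at 0. SH-SY5Y is generally classed as noradrenergic, so most of these markers go against the label. Of 20 heart muscle genes, none at 0 in all libraries, the summed level was 48.5 and 14.8 CPM in SWT replicates 1 and 2, against 12.2 and 393 CPM in control replicates 1 and 2. Control replicate 2 stood apart in these transcripts, and results that rest on it are given with and without it. Across the more abundant tested genes with known GC content, the log2 difference between the controls (replicate 2 minus 1) had a Spearman rho of -0.483 with GC content. That of SWT minus control had -0.403. These are descriptions, since genes of 1 library share its depth and preparation. In bulk RNA, fewer cells of a type and less RNA per cell cannot be told apart.

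Per kilobase of exon, the urokinase gene was the most abundant of the 9 and thrombomodulin the least. PLAU stood at 161 ± 11 CPM per kilobase over the 4 libraries, above 97.6% of tested genes. PROCR at 95.9 ± 4.72 and SERPINE2 at 94.97 ± 3.48 CPM per kilobase came next, and their ranges over the libraries overlapped. PLAUR followed at 30.6 ± 3.00 CPM per kilobase. TFPI at 19.9 ± 1.09, F3 at 19.6 ± 5.88 and PLAT at 16.6 ± 1.35 CPM per kilobase formed a group in which F3 overlapped both neighbours. That overlap rested on control replicate 1, where F3 stood at 10.8 CPM per kilobase. In the other libraries F3 stood at 21.9 to 23.0, above every value of TFPI and PLAT. TFPI2 lay lower, at 4.06 ± 0.249 CPM per kilobase (SD, n = 4 for all of these levels). With the longest annotated transcript as the length, an alternative chosen after seeing the data, SERPINE2 stood at 49.9 and TFPI at 10.8 CPM per kilobase, so TFPI came below F3 and PLAT, while PROCR stayed above SERPINE2.

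**Figure D1:**
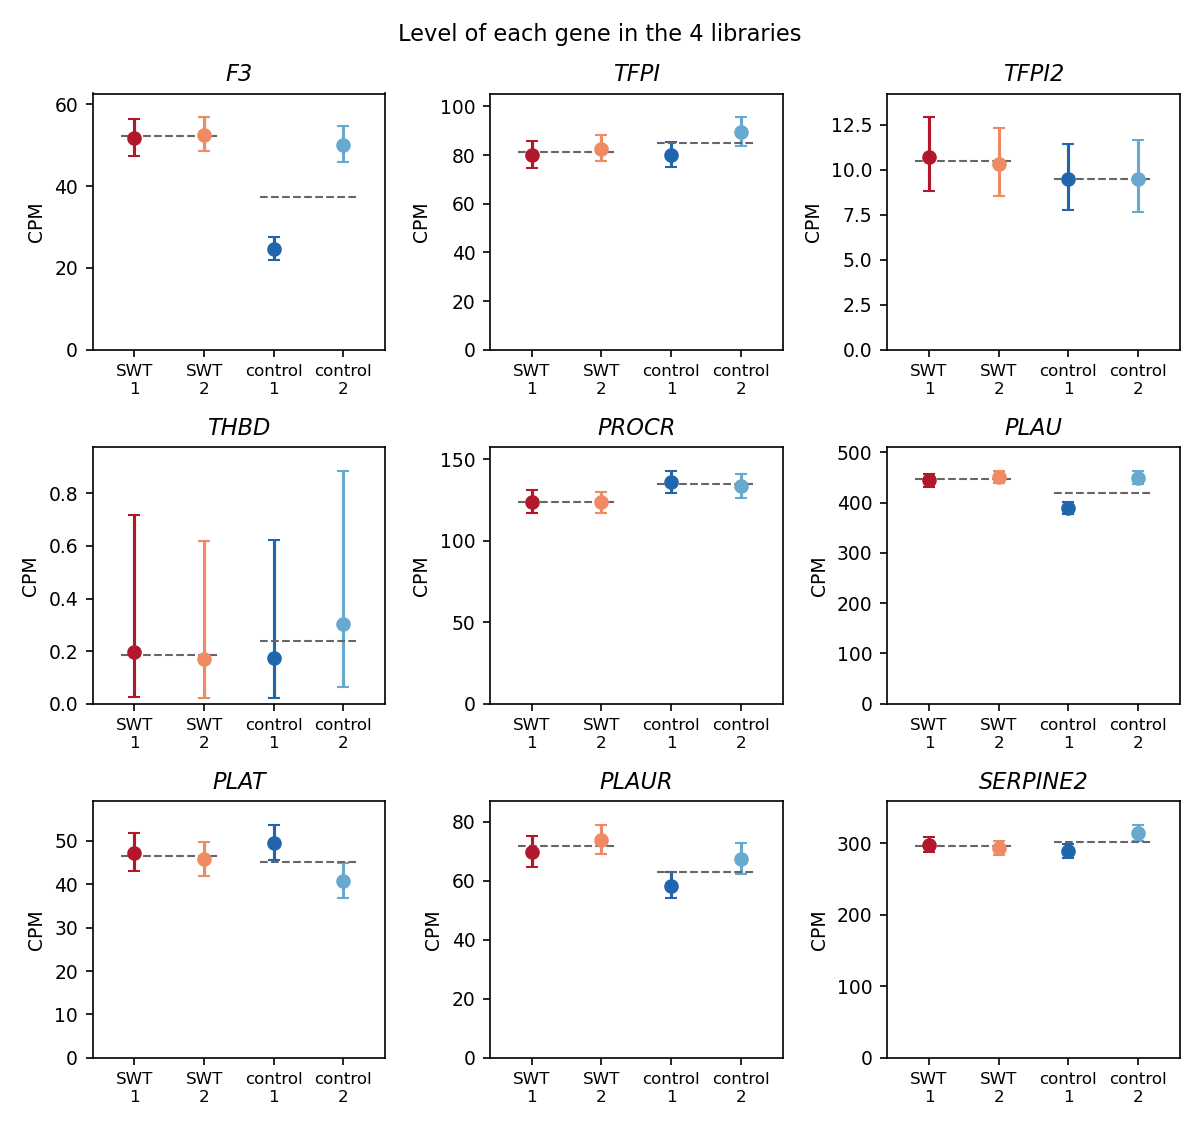
Level of each of the 9 genes in CPM (vertical axes from 0) in SWT replicates 1 and 2 (left) and control replicates 1 and 2 (right). Bars are 95% exact Poisson intervals for counting error, and dashed lines are group means. F3 stands at 24.6 CPM in control replicate 1 and between 50.1 and 52.6 CPM in the other libraries, while THBD has 2 or 3 counts in each.

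F3 (chromosome 1, 94529225 to 94541800 on GRCh38, minus strand) differed more between the controls than between any SWT library and control replicate 2. It had 521 and 613 counts in SWT replicates 1 and 2, against 286 and 496 counts in control replicates 1 and 2. In CPM these were 51.7 (95% exact Poisson interval 47.3 to 56.3) and 52.6 (48.5 to 56.9) in SWT, against 24.6 (21.8 to 27.6) and 50.1 (45.8 to 54.7) in control. Control replicate 1 alone was low, and control replicate 2 lay inside the counting intervals of both SWT libraries, although the groups do not overlap. The group means were 52.1 ± 0.637 CPM in SWT and 37.4 ± 18.0 CPM in control (SD, n = 2 each).

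The controls differed 2.04-fold in F3, and of 12393 tested genes with a count in every library, 1.12% differed more between the controls. The SWT libraries differed in F3 by a log2 value of 0.025, and 84.0% of these genes differed more between them. The log2 fold change of F3, SWT minus control, was 0.50 (SE 0.18, 95% interval 0.12 to 0.89, edgeR adjusted p = 0.838). Without control replicate 1 it was 0.058, and without control replicate 2 it was 1.08. Without SWT replicate 1 it was 0.51 and without SWT replicate 2 it was 0.485. Each of these fits left 1 group with a single sample, whose spread could not be measured. With no filter on low counts the log2 fold change of F3 was 0.51 (SE 0.086, edgeR adjusted p = 3.59e-06). The fold change hardly moved there, and the lower p came with a smaller SE. With DESeq2 it was 0.48, with a larger SE of 0.50. With each library's trend along length and GC content removed, it was 0.50 (edgeR adjusted p = 0.629).

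Parts of the promoter windows of F3, PLAUR and TFPI2 are shown because these windows hold the AP-1 motif TGANTCA, which reads the same on both strands. AP-1 is a dimer of FOS and JUN family proteins. Windows ran from 250 bases before to 50 after the start annotated by RefSeq on GRCh38.p14, and 7 of the 9 genes had one, with 2 windows each for PLAU and SERPINE2. Among all 35116 windows 7.71% hold the motif and 0.515% hold it at least 2 times, as F3 does, at positions -223 and -210 from the start. PLAUR has it at -186 and TFPI2 at -87. The motif of the growth factor induced protein EGR1, GCGGGGGCG, searched on both strands and with no overlap with those AP-1 matches, is in the windows of F3 and TFPI2 and in 5.07% of all windows. A match in these letters is not a bound site, and nothing in these libraries measured binding. Capitals below mark TGANTCA, all sequences run 5′ to 3′ on the minus strand, and they cover chr1:94541810-94542009, chr19:43670319-43670385 and chr7:93890804-93890870.
F3: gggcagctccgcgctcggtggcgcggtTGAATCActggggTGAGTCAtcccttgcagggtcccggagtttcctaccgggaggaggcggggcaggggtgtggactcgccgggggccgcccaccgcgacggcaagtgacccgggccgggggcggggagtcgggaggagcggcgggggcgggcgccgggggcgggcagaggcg
PLAUR: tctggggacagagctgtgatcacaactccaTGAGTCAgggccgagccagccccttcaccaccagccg
TFPI2: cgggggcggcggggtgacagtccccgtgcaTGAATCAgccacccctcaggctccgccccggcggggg

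The Kunitz-type inhibitor genes had no low value in control replicate 1 of the size seen for F3. TFPI (chromosome 2, 187464230 to 187565760), whose product blocks tissue factor with factor VIIa and factor Xa, stood at 79.9 and 82.7 CPM in SWT replicates 1 and 2, against 80.0 and 89.6 CPM in control replicates 1 and 2. The groups overlap and only control replicate 2 was higher than the rest. Its log2 fold change was -0.057 (SE 0.071, edgeR adjusted p = 0.941), and it was 0.026 once control replicate 2 was omitted. TFPI2 (chromosome 7, 93885396 to 93890991), a relative that inhibits plasmin and matrix proteases, had 10.7 and 10.3 CPM in SWT, against 9.47 and 9.50 CPM in control. These libraries separate by group, but each value lies inside the counting intervals of the others, and the log2 fold change was 0.15 (SE 0.14, edgeR adjusted p = 0.928). Per kilobase, the ratio of F3 to TFPI was 1.18 and 1.16 in SWT replicates 1 and 2, against 0.562 and 1.02 in control replicates 1 and 2, and only in control replicate 1 was it below 1 with this choice of length.

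In the protein C branch the receptor gene was abundant and thrombomodulin was near the limit of detection. PROCR (chromosome 20, 35172073 to 35216240) stood at 124 and 124 CPM in SWT replicates 1 and 2, against 136 and 133 CPM in control replicates 1 and 2. Both SWT libraries were lower than both controls, and the log2 fold change was -0.12 (SE 0.059, 95% interval -0.25 to 0.0032, edgeR adjusted p = 0.843). Omitting any 1 library kept it between -0.135 and -0.106. THBD (chromosome 20, 23045633 to 23049741) had 2 and 2 counts in SWT replicates 1 and 2, against 2 and 3 counts in control replicates 1 and 2, which is at or under the limit of a count of 0, so no fold is given. It was the 1 gene of the 9 that the filter on low counts removed. Thrombomodulin and the receptor are both known from endothelium. Of 12 endothelial markers, 6 stayed under 1 CPM in every library and 1 reached 10 CPM in every library. The 12 markers summed to 28.9 and 30.5 CPM in SWT replicates 1 and 2, against 31.5 and 33.1 CPM in control replicates 1 and 2. These sums were below PROCR alone in CPM, which takes no account of gene length. The part of other cells in the PROCR level was not tested.

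Per kilobase, urokinase transcripts outnumbered those of tissue plasminogen activator in all libraries. PLAU (chromosome 10, 73909177 to 73917497) had 444 and 451 CPM in SWT replicates 1 and 2, against 389 and 450 CPM in control replicates 1 and 2. As with F3, control replicate 1 was the low library. Control replicate 2 lay between the SWT libraries. The log2 fold change was 0.094 (SE 0.062, edgeR adjusted p = 0.893). It was -0.007 when control replicate 1 was omitted and 0.20 without control replicate 2. PLAT, on chromosome 8, had 47.3 and 45.8 CPM in SWT replicates 1 and 2, against 49.5 and 40.7 CPM in control replicates 1 and 2. Here the controls were the highest and the lowest library, and the log2 fold change was 0.038 (SE 0.090, edgeR adjusted p = 0.977). It became 0.19 when control replicate 1 was omitted and -0.089 without control replicate 2. Per kilobase, PLAU exceeded PLAT 9.64-fold and 10.1-fold in SWT replicates 1 and 2, against 8.07-fold and 11.3-fold in control replicates 1 and 2. The exons of PLAU overlap those of C10orf55 on the opposite strand over 28.7% of their length. C10orf55 itself had 5 to 9 counts per library. Since the strand setting of the counting is not given, these counts cannot show whether the overlap affects PLAU.

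PLAUR (chromosome 19, 43646095 to 43670547), the urokinase receptor gene, stood at 69.9 and 73.9 CPM in SWT replicates 1 and 2, against 58.4 and 67.4 CPM in control replicates 1 and 2. The groups do not overlap, control replicate 1 was again lowest, and control replicate 2 lay inside the counting interval of SWT replicate 1. The log2 fold change was 0.20 (SE 0.077, 95% interval 0.036 to 0.36, edgeR adjusted p = 0.838). It was 0.097 with control replicate 1 omitted, and 0.30 without control replicate 2. Per kilobase the ratio of PLAU to PLAUR was 5.20 and 4.99 in SWT replicates 1 and 2, against 5.46 and 5.46 in control replicates 1 and 2. The ratio was thus nearly the same in the controls, while both transcripts were lower in control replicate 1. Of 12393 tested genes with a count in every library, 25.2% differed more between the controls than PLAU. For PLAUR the share was 25.4%. Whether ligand and receptor transcripts change together was not tested.

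SERPINE2 (chromosome 2, 223975112 to 224039319), encoding protease nexin-1, an inhibitor of thrombin and urokinase known in brain, had the log2 fold change closest to 0 of the 8 tested genes. It had 298 and 294 CPM in SWT replicates 1 and 2, against 290 and 315 CPM in control replicates 1 and 2. The SWT libraries lay between the controls. The log2 fold change was -0.031 (SE 0.057, 95% interval -0.15 to 0.091, edgeR adjusted p = 0.969). It was 0.03 once control replicate 2, the highest library, was omitted.

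**Figure D2:**
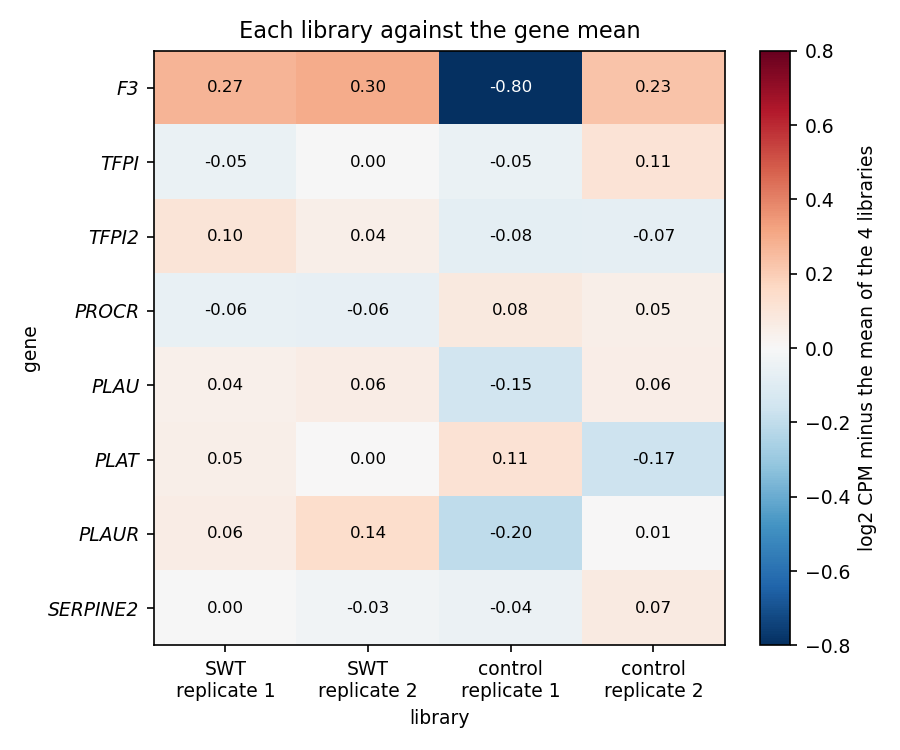
Log2 CPM of the 8 tested genes (rows) in each library (columns, SWT left, control right), as the difference from the gene's mean over the 4 libraries (colour and printed value). F3 is at -0.80 in control replicate 1, and PLAU and PLAUR are also lowest there, at -0.15 and -0.20.

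Of the 9 genes, 8 passed the filter on low counts and 0 of these passed the test of SWT against control with edgeR's quasi-likelihood F-test adjusted over 12399 genes, where 0 genes (0%) passed in all. At an unadjusted p under 0.05 there were 2 of the 8, F3 and PLAUR, beside 715 genes (5.77%) of all those tested, and DESeq2, limma-voom and limma on the deposited log2 values called 0 of the 9. Log2 fold changes lay above 0 for 5 of the 8 and below 0 for 3, with a median of 0.066, against -0.0008 over all genes tested. Omitting control replicate 1 gave a median of 0.026, and omitting control replicate 2 gave 0.089. Both SWT libraries lay above both controls for 3 of the 8, where 17.3% of all tested genes did so, and below for 1, where 18% did so, so 4 of the 8 separated by group beside 35.3% of all tested genes. For 7 of the 8, all but F3, the edgeR 95% interval of the log2 fold change lay within 0.5 of 0. The share of all tested genes with such an interval was not counted. This count depends on the method, since DESeq2 gave each of the 8 a larger SE, for TFPI2 0.27 against 0.14 with edgeR. Without control replicate 2, the library with heart muscle transcripts, F3, PLAU and PLAUR passed, where 1.6% of 12697 genes did. Without control replicate 1, 0 of the 8 passed, where 0.978% of 12573 genes did. F3 alone passed without SWT replicate 1 (0.346% of genes called), without SWT replicate 2 (0.135%) and with no filter on low counts (0.355%). With the replicate block, and with trends along length and GC content removed, 0 of the 8 passed and 0.00807% of genes did. An exact permutation of 2 samples against 2 cannot go below p = 0.333, two-sided.

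**Figure D3:**
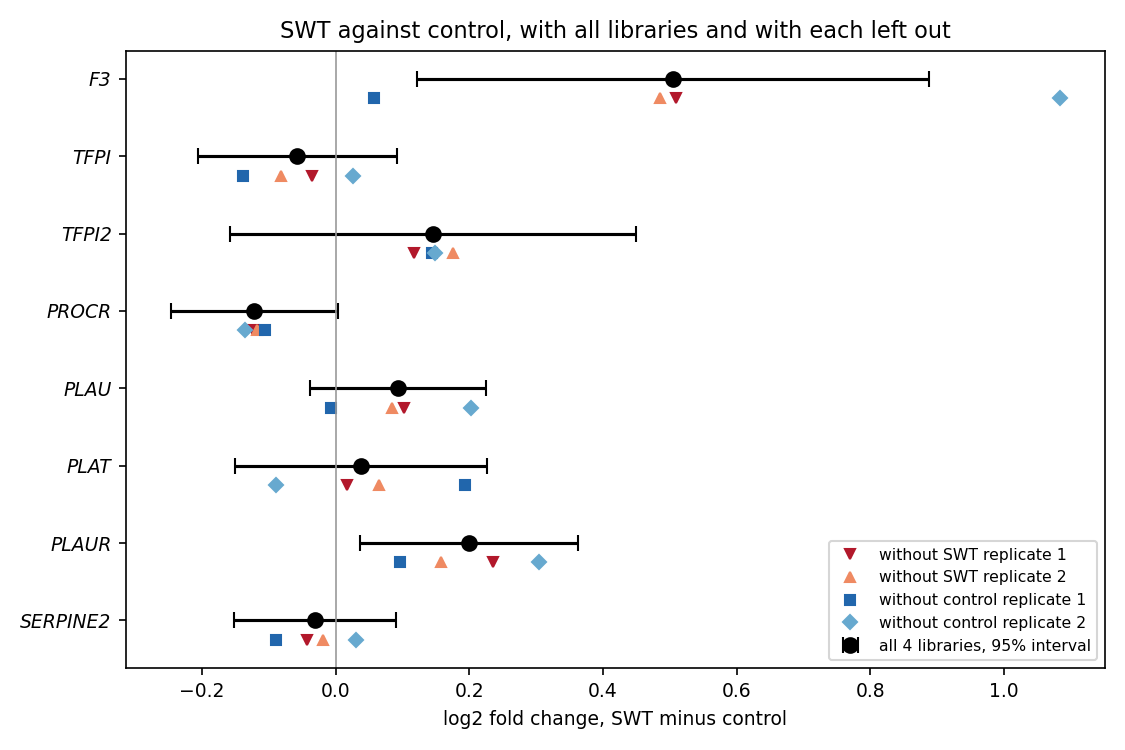
Log2 fold change, SWT minus control (horizontal axis), of the 8 tested genes (rows): black points with 95% intervals use all 4 libraries, and coloured markers leave out 1 library each. With control replicate 1 omitted F3 lies at 0.058, with control replicate 2 omitted at 1.08, and PROCR stays between -0.135 and -0.106.

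The partners of these genes were listed by function as 50 further coagulation and fibrinolysis genes. Of these 23 were tested and 0 passed in either direction with edgeR (2 at an unadjusted p under 0.05), with 11 above 0, 12 below 0 and a median of -0.005. The 17 plasma clotting factors were nearly absent: 9 had no count in any library, among them F2, F7 and F10, which encode prothrombin, factor VII and factor X, and 14 stayed under 1 CPM in every library. Of the 2 tested, F8 and F12, both lay below 0. Of the 7 inhibitor and protein C genes 2 were tested, also below 0, and PROS1, encoding the cofactor protein S, stood at 33.7 and 34.9 CPM in SWT replicates 1 and 2, against 36.8 and 37.1 CPM in control replicates 1 and 2 (log2 fold change -0.11, SE 0.084, edgeR adjusted p = 0.912). PROC, encoding protein C itself, had 1 count in SWT replicate 2 and 0 elsewhere. All 6 genes for synthesis and transport of clotting factors were tested, all above 0, with a median of 0.028 and a highest value of 0.088, for VKORC1L1, a vitamin K epoxide reductase gene named after its value was seen. PLG, the plasminogen gene, had 1 count in SWT replicate 1 and 0 in the other libraries, at or under the limit of a count of 0.

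Of the 4 protease-activated receptors, through which thrombin and factor Xa act on cells, 3 were tested. The thrombin receptor gene F2R stood at 288 and 288 CPM in SWT replicates 1 and 2, against 269 and 279 CPM in control replicates 1 and 2 (log2 fold change 0.072, SE 0.055, edgeR adjusted p = 0.910). F2RL1, a receptor that tissue factor complexes can cleave, stood at 15.9 and 17.1 CPM in SWT, against 17.8 and 16.4 CPM in control (log2 fold change -0.054, SE 0.12, edgeR adjusted p = 0.975). The groups do not overlap for F2R and overlap for F2RL1.

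SERPINI1, encoding neuroserpin, the inhibitor of tissue plasminogen activator in neurons, had 66 and 104 counts in SWT replicates 1 and 2, against 63 and 60 counts in control replicates 1 and 2 (log2 fold change 0.44, SE 0.19, edgeR adjusted p = 0.843, and 0.19 without SWT replicate 2). SERPINB2, encoding an inhibitor of urokinase, had at most 2 counts in any library.

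Plasminogen receptor and clearance genes numbered 9, of which 8 were tested, 1 above and 7 below 0, with a median of -0.032. ANXA2 and S100A10, which form a complex that binds plasminogen and tissue plasminogen activator, averaged 2024 ± 29.7 and 603 ± 13.2 CPM in SWT, against 2051 ± 12.9 and 606 ± 0.833 CPM in control (SD, n = 2 each). Their reads can be shared with processed pseudogenes. LRP1, the endocytic receptor that clears protease and serpin complexes, had 159 and 182 CPM in SWT replicates 1 and 2, against 204 and 137 CPM in control replicates 1 and 2. It was highest in control replicate 1, opposite to F3, and its log2 fold change was -0.0047 (SE 0.12, edgeR adjusted p = 0.998). It became 0.32 without control replicate 1 and -0.26 without control replicate 2. VTN, encoding vitronectin, had at most 5 counts.

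**Figure D4:**
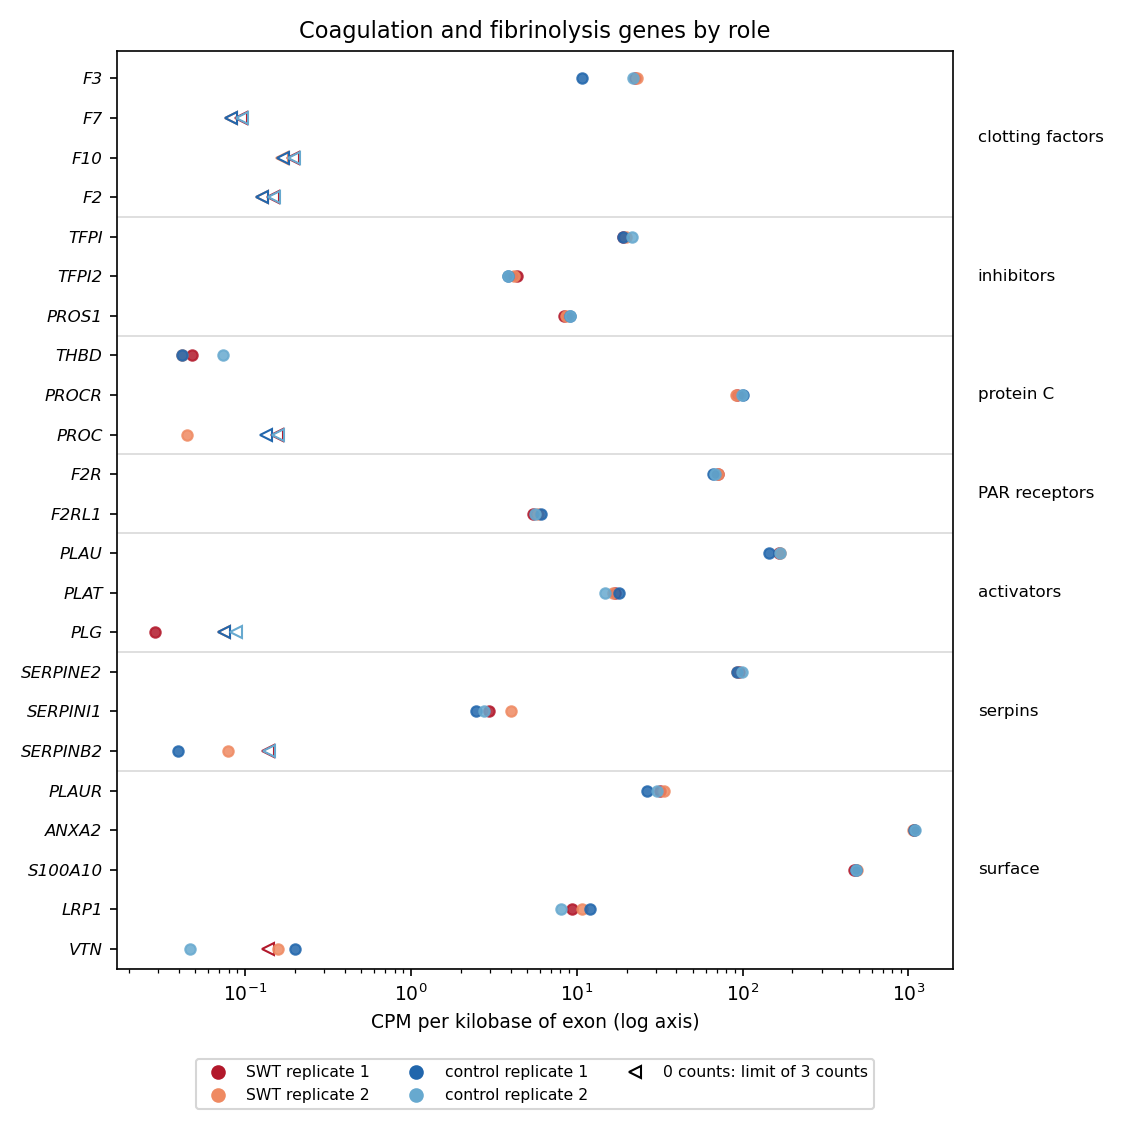
Level in CPM per kilobase of exon (log axis) of the 9 genes and a set of partner genes (rows, grouped by role), with 1 point per library, SWT in red shades and control in blue shades. Open triangles mark libraries with 0 counts, drawn at the limit of 3 counts. PLAU, SERPINE2, PROCR and F2R lie far above F2, F7, F10, PROC and PLG.

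The genes whose library pattern lay closest to that of F3 were sought among 9282 others with a mean of at least 10 CPM, by the root mean square difference of log2 CPM centred on the 4 libraries. They were FAM196B (0.158), DKK1 (0.182), encoding a secreted Wnt antagonist, and ANKRD1 (0.189). ANKRD1 had 279 and 280 CPM in SWT replicates 1 and 2, against 178 and 266 CPM in control replicates 1 and 2. Those closest to PLAU were MAP1LC3B (0.0101), WDR76 (0.0106) and MAK16 (0.0111), and MAP1LC3B had 80.1 and 80.9 CPM in SWT, against 71.2 and 81.0 CPM in control. All 6 were lowest in control replicate 1, which follows from the search, since F3 and PLAU are lowest there. Of all tested genes, 28.6% were lowest in that library. With 4 libraries such closeness is a description.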

How the data were processed

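Poly(A) RNA of 4 samples was sequenced from a stranded kit, per the labels' protocols. The authors deposited raw counts per gene symbol, and a log2 table holding 17151 genes, where control differences had a slope of 0.381 on those of log2 counts. Trimmomatic 0.36, FastQC 0.11.5, STAR 2.5.3a, HTSeq, DESeq2 and hg38 are named in the submitters' processing notes; the annotation and the strand setting are not given in the sources used here, so antisense overlaps cannot be resolved.

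Counts were tested with edgeR 4.0.16 (R 4.3.3): TMM, filterByExpr, quasi-likelihood F-test, Benjamini-Hochberg adjustment over 12399 genes, threshold 0.05. Standard errors were derived from each log2 fold change and its F statistic, and intervals are approximate. CPM uses TMM-scaled totals. Lengths, GC content and coordinates come from GENCODE release 29 (GRCh38), with the union of basic-set exons as length. Poisson intervals (95%) and the limit of 3 counts cover counting error only. Fits were tested on simulated data. Alternatives used DESeq2 1.42.0, limma 3.58.1, other scalings and filters, a replicate block, omission of each library and removal of length and GC trends, for which 97.4% of tested genes had values. Plots were made in Python 3.11.15 with matplotlib 3.10.9.

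The 9 genes, partner and marker lists were chosen with earlier results of these data known. All 9 are named, with partners fixed by name, any partner that passed, and the 3 genes closest in pattern to F3 and to PLAU. Results for some listed genes are not reported here.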

Additional observations from a re-analysis of the deposited data

How the results depend on the processing

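Counts of calls depended on the filter and the pairing, and some fold changes depended on single libraries. With no filter, edgeR called 63 genes, 1 of the 9 (F3) and 1 partner (A2M). Omitting single libraries gave 17 to 203 genes, 0 to 3 of the 9 and 0 to 3 partners, with the lone sample of a group assumed to vary like the other group. In those fits the log2 fold change ranged from -0.007 to 0.202 for PLAU, -0.139 to 0.026 for TFPI, -0.089 to 0.193 for PLAT and -0.089 to 0.03 for SERPINE2, each changing sign, and it kept its sign for F3, TFPI2, PROCR and PLAUR. Same-numbered samples did not deviate together (correlation -0.264). The replicate block called 1 gene, 0 of the 9 and 0 partners. A crossed pairing, added after seeing the data, called 97 of 12399 tested genes, 1 of the 9 (F3) and 1 partner. Removing trends with length and GC content called 1 gene, 0 of the 9 and 0 partners. No gene passed with DESeq2, with limma-voom, with the deposited log2 values, when only genes averaging 50 counts or more were kept, or when upper-quartile or DESeq2 factors scaled the libraries. The cause of these differences was not tested. Depth limits THBD, PLG, PROC and most clotting factors, which lie at or near the limit of a count of 0.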

Other observations

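Among the partner genes, A2M, encoding the protease inhibitor alpha-2-macroglobulin, had 1 and 0 counts in SWT replicates 1 and 2, against 0 and 31 counts in control replicates 1 and 2. VWF, encoding von Willebrand factor, had 3 and 1 counts in SWT replicates 1 and 2, against 1 and 17 counts in control replicates 1 and 2. Both genes were picked out after their values were seen, and both are high only in control replicate 2, the library in which the 20 heart muscle genes summed to 393 CPM. F13A1, encoding a subunit of factor XIII, had 5 counts in that library and 0 in the other 3.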
